A study of Mus musculus with 26 samples.

Results

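The cytosolic ribosomal protein genes encode the protein parts of the ribosome that works outside mitochondria. They were followed here across dose and mouse in liver RNA. Members were the rows of the count table whose symbol is Rpl or Rps followed by a digit, or is Rplp0, Rplp1, Rplp2 or Rpsa, without symbols holding -ps and without the Rps6k kinases, and with a mean of at least 10 reads per mouse. Of 54532 rows, 390 matched the symbol pattern, and 287 pseudogene symbols and 10 kinase symbols were left out. Of the remaining 93 symbols, 8 fell below the mean of 10 reads and 85 were kept. The nearest below were Rps3a2 at 4.62 and Rpl24 at 8.19 reads per mouse, and the nearest above were Rpl36al at 19.1 and Rps10 at 31.1. The 85 members are 41 genes of the large subunit, 31 of the small subunit, 4 of the stalk, 8 paralogs or gene copies, and Rps19bp1. Rps19bp1 matches the symbols but encodes a protein that binds a ribosomal protein.

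The samples were livers of 26 C57BL/6 mice, 1 library per mouse, acclimatised over weeks 4 to 8 with shared bedding. Benoxacor, a safener added to herbicides to protect the crop, was given by gavage on 3 days in a row at 0, 0.5, 5 or 50 mg/kg, and livers were taken 24 hours after the last gavage. Controls (0 mg/kg) numbered 5, the 0.5 mg/kg group 5, the 5 mg/kg group 8 and the 50 mg/kg group 8, with no genetic change labelled in any group, and neither the sex nor the gavage vehicle is labelled. Mouse numbers form 2 runs, from 601 to 616 (15 mice: 4, 3, 4 and 4 at the rising doses) and from 619 to 632 (11 mice: 1, 2, 4 and 4). No label explains the gap between the runs, and within a run the numbers rise with dose, so dose and number order cannot be told apart.

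A cytosolic ribosome joins a small subunit, which reads the messenger RNA, to a large subunit, which forms the peptide bond. Each ribosomal protein is normally present once per ribosome, except the acidic stalk proteins, so cells keep the supply of the proteins balanced. Their messenger RNAs begin with a run of pyrimidines, the 5′ terminal oligopyrimidine (TOP) motif, through which growth signals acting on mTORC1 set how well they are translated. Liver, which makes most plasma proteins, needs many ribosomes.

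RefSeq start sites on GRCm38.p6 were searched for the TOP motif, and examples of the starts that hold it are shown because it is the feature of the messages described above. RefSeq promoter entries matched 63 of the 85 members. In 14 of the 63 (22.2%), the annotated first base was a C followed by at least 4 pyrimidines (C or T), against 3.01% of 27025 genes with an entry. The 6 printed are 3 large-subunit, 1 stalk and 2 small-subunit genes from that set, and most of the 63 had no such run at the annotated first base. Each runs from 10 bases before the annotated start to 20 bases from it, 5′ to 3′. The capitals mark the pyrimidine run from the annotated first base onward.
Rpl15: agaaagccttCTTCCTTTCCTCTggcggca
Rpl28: tctcgtgtctCTCTTTCCgtctccggccgc
Rpl35: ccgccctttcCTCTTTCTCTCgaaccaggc
Rplp2: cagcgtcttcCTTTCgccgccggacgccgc
Rps6: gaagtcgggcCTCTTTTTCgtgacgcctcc
Rps15a: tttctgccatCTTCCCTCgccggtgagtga
These starts lie at chr14:18270967-18270996 (minus strand), chr7:4792955-4792984, chr2:39005112-39005141 (minus strand), chr7:141447641-141447670, chr4:86857348-86857377 (minus strand) and chr7:118116128-118116157 (minus strand). Counted from the annotated first base, the run of pyrimidines was 13 bases long in Rpl15 and 5 in Rplp2. Pyrimidines before that base, as in Rpl15, Rpl35 and Rplp2, are not counted in it. Allowing the same run to start within 10 bases of the annotated start, 37 of 63 members (58.7%) had one, against 34.4% of all genes. In the whole window of 300 bases, on either strand, CGGAAG was found in 42 of 63 members (66.7%, against 18.8% of all genes), GGGCGG in 40 (63.5%, against 38.2%) and AAGATGG in 10 (15.9%, against 7.28%). Among the 16488 protein-coding genes, CGGAAG was found in 24.2%, GGGCGG in 51.0% and AAGATGG in 7.27%. TATAAA in the 40 bases before the start was found in 1 of the 63 (1.59%, against 2.78%). These letter matches describe the windows and do not show that a factor binds there.

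Libraries held 5433074 to 9088626 counts, with a median of 7105531. Levels of genes are in CPM, counts scaled to a common library size, after TMM, a factor that evens out the bulk of genes. The sums of cell type markers are in CPM of library totals alone, without TMM. Of 10 listed hepatocyte markers 9 were in the table, and they summed to 55049 to 134008 CPM per library, the highest of the cell type lists in every mouse. One library stood apart: 5 mg/kg replicate 8 held 4137 CPM of steroid-producing cell markers, where the other mice held 4.34 to 29.1 CPM, and 202 CPM of B cell markers, where the other mice held 5.48 to 15.6. It was also the highest in markers of pancreas acinar cells (118 CPM, others 12.5 to 33.4), stellate cells and fibroblasts (566 CPM, others 129 to 335) and T and NK cells (20.5 CPM, others 1.90 to 7.45). Its part in the results was not tested beyond leaving it out. Without it no member was called in the comparisons that use it, and the median member log2 fold change at 5 against 0 mg/kg was 0.15, against 0.16 with it.

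Ribosomal protein genes took a similar share of the reads at every dose. Summed over the 85 genes, the control mean was 1.27% ± 0.14 (SD, n = 5). It was 1.2497% ± 0.12 (SD, n = 5) in mice given 0.5 mg/kg, 1.30% ± 0.10 (SD, n = 8) in those given 5 mg/kg and 1.26% ± 0.09 (SD, n = 8) in those given 50 mg/kg. The 5 controls had 1.47%, 1.08%, 1.22%, 1.31% and 1.26%, and the 5 mice at 0.5 mg/kg had 1.40%, 1.205%, 1.17%, 1.12% and 1.34%. The 8 mice at 5 mg/kg ran from 1.13% through a median of 1.32% to 1.41%, and the 8 at 50 mg/kg from 1.16% through 1.24% to 1.36%. The controls spanned the whole range of the other groups, with the lowest and the highest mouse of the study among them. By run, the mean was 1.27% ± 0.11 (n = 15) in the run from 601 and 1.28% ± 0.10 (n = 11) in the run from 619. After TMM scaling the summed level was 12210 ± 1198 CPM (SD, n = 5) in controls, 13545 ± 1165 (SD, n = 5) with 0.5 mg/kg, 12644 ± 1474 (SD, n = 8) with 5 mg/kg and 12798 ± 1146 (SD, n = 8) with 50 mg/kg, and these ranges overlapped too. In whole liver, fewer cells of a type and less RNA per cell cannot be told apart.

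**Figure D1:**
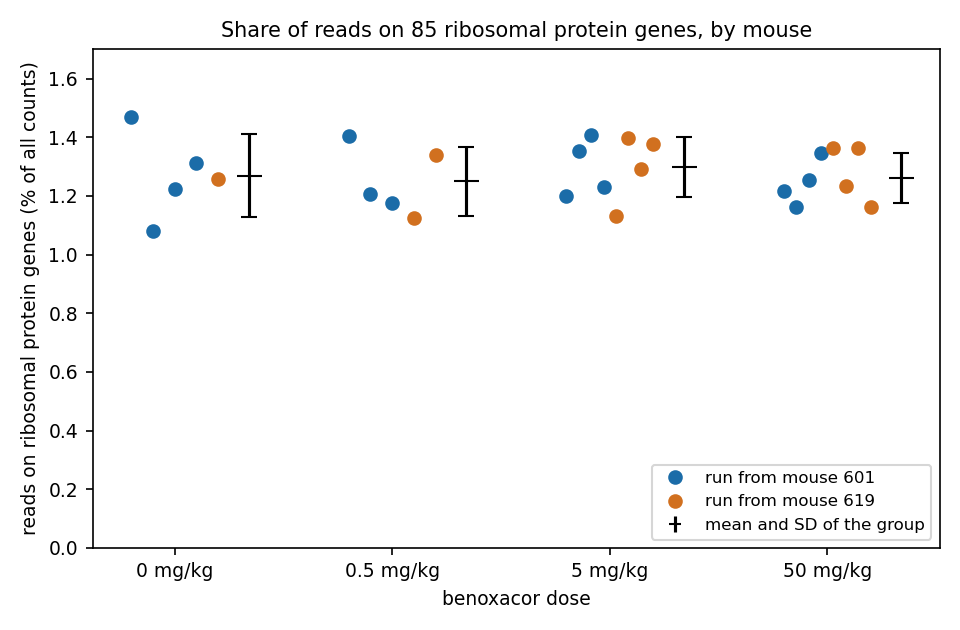
Share of each mouse's counts that fell on the 85 ribosomal protein genes (y axis, % of all counts) by benoxacor dose (x axis), with points coloured by run and the black mark giving the group mean and SD. All 26 mice lie between 1.08% and 1.47%, and the control mice cover the range of the other groups.

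Levels differed widely between the genes although each protein is normally present once per ribosome. Per kilobase of annotated exon, the median member stood at 72.8 CPM. The highest were Rplp1, an acidic stalk protein, at 431 CPM per kilobase, Rps3a1, a small-subunit protein, at 307, and Rps15, a protein of the small-subunit head, at 274. The lowest were Rps10 at 1.85, Rpl36al, a retained copy of Rpl36a, at 1.97, and Rpl13a at 5.67. Length decided part of this order: per kilobase of the transcript with the longest coding sequence, the highest were Rps14 (759), Rps18 (522) and Rps27a (512), while Rps10 and Rpl36al stayed lowest at 5.99 and 5.08. Rps10, Rpl13a and Rpl24 encode core ribosomal proteins, and their mean counts were 31.1, 87.8 and 8.19 reads per mouse, where Rps14 had 3242.

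Many of these genes have near-identical copies elsewhere in the genome, and how the authors' counting treated reads that match several places is not given in the sources used here. Of 85 members, 47 shared more than 50% of the 50-base windows of their transcript exactly with another annotated gene, and the median share was 57.4%. Rps27 shared 98.6% of its windows and Rpl5 93.8%, while Rps19bp1 shared 0%. Rps10 shared 64.7%, Rpl13a 57.4% and Rps14 38.1%. Spearman's rho of level per kilobase of coding transcript with shared windows was 0.25 across 85 genes, which share libraries and are not independent replicates. Whether reads that match several places were lost from the low members was not tested. Levels of single members are therefore uncertain, and how far this affects comparisons of the same gene between mice was not tested.

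The comparison of 50 with 0 mg/kg asked whether the highest dose changed the ribosomal protein genes, and none of the 85 passed. All 85 were tested among 14415 genes in edgeR (quasi-likelihood, Benjamini-Hochberg adjusted), and the smallest adjusted p of a member was 0.930. Over all genes 0.00694% were called, which is 1 gene. With 0 members called by edgeR, 3 had an unadjusted p under 0.05, against 5.11% of all genes. All 3 were higher at 50 mg/kg, where 2.54% of all genes were past it in that direction and 2.57% in the other. DESeq2 and limma-voom also called 0. Fold changes were positive in 62 of 85 members, against 51.1% of all genes, and their median was 0.11 on the log2 scale, against 0.01 for all genes tested. The member intervals were narrow enough to place 57 of 85 within a 1.5-fold change either way and 84 within 2-fold.

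**Figure D2:**
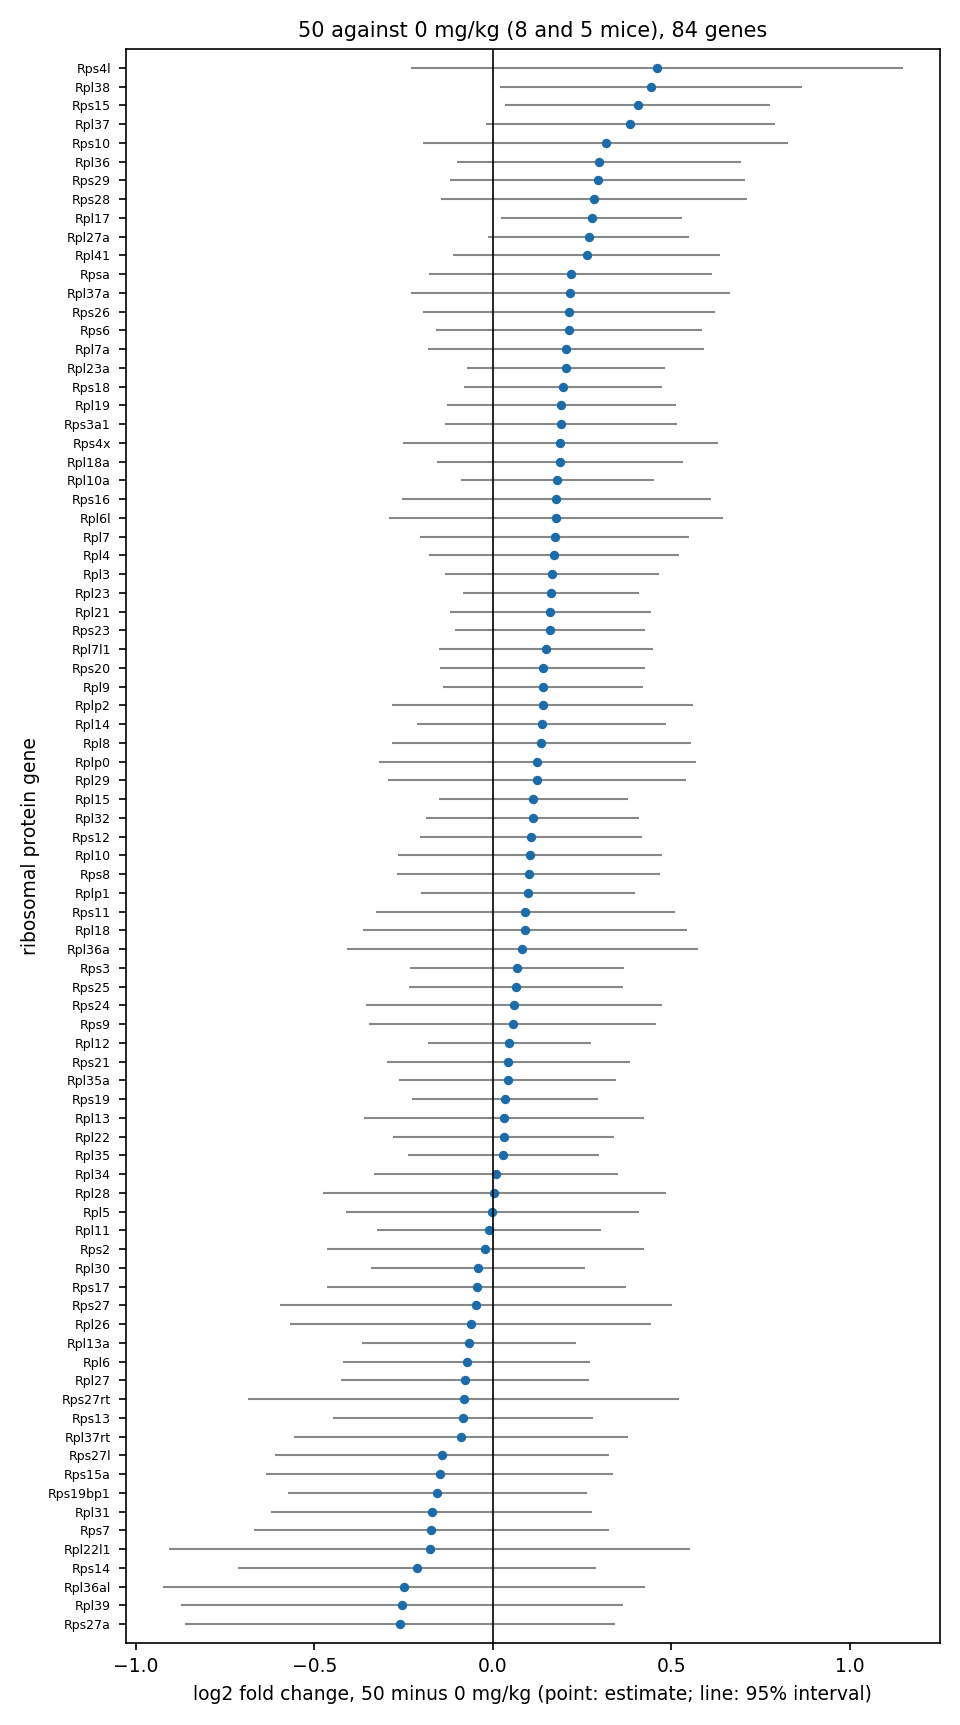
Log2 fold change between 50 and 0 mg/kg (x axis, 8 and 5 mice) for 84 of the genes (y axis, ordered by the estimate), with lines giving the 95% interval. Points run from Rps27a at -0.26 to Rps4l at 0.46, and the lines of 3 genes (Rps15, Rpl17 and Rpl38) do not reach 0.

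The members of smallest p at 50 against 0 mg/kg were Rps15, Rpl17 and Rpl38. Rps15 (ENSMUSG00000063457, chromosome 10 from 80292453 to 80294114 in GRCm38) had 140, 111, 150, 160 and 111 CPM in the 5 controls and 132 to 241 CPM, with a median of 179, in the 8 mice at 50 mg/kg. The ranges overlapped, and the log2 fold change was 0.41 (SE 0.18, 95% interval 0.04 to 0.78, adjusted p = 0.930 in edgeR). Rpl38, a large-subunit protein studied for its part in translating selected messages in the embryo, had 35.7, 18.2, 24.7, 32.7 and 26.2 CPM in the controls and 29.5 to 53.1, median 38.3, at 50 mg/kg. Its log2 fold change was 0.44 (SE 0.21, interval 0.02 to 0.87), and the groups overlapped. Rpl17, which lines the exit of the peptide tunnel, had 132, 99.9, 132, 142 and 107 CPM in the controls and 132 to 177, median 139, at 50 mg/kg, a log2 fold change of 0.28 (SE 0.12). Rpl27a (0.27), Rpl37 (0.39) and Rpl36 (0.30, and 0.17 without 0 mg/kg replicate 5) had the next smallest p among positive members. None of the 85 members had groups that did not overlap, where 0.166% of all genes did.

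On the negative side the members of smallest p were Rps27a, Rps14, Rpl39, Rpl31, Rps19bp1 and Rpl36al, with log2 fold changes from -0.26 to -0.16 and unadjusted p of 0.385 or more. Rps27a, which is made as a fusion with ubiquitin, had 546, 338, 352, 261 and 530 CPM in the controls and 158 to 515, median 305, at 50 mg/kg, a log2 fold change of -0.26 (SE 0.29). The ranges overlapped over most of their length. Without 0 mg/kg replicate 5, the single control of the run from 619, the log2 fold changes became 1.7e-04 for Rps27a, 0.01 for Rps14, 0.03 for Rpl39, 0.07 for Rpl31 and 0.16 for Rpl36al.

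Ordered by role, the medians of the main classes lay close together. At 50 against 0 mg/kg the median log2 fold change was 0.12 over 41 large-subunit members (32 positive) and 0.10 over 31 small-subunit members (23 positive). All 4 stalk members were positive, with a median of 0.11: Rplp0, the scaffold of the stalk, 0.12 (SE 0.22), Rplp1 0.10 (SE 0.15), Rplp2 0.14 (SE 0.21) and Rpl12, which sits at its base, 0.05 (SE 0.11). Rpsa, also known as the laminin receptor precursor, had 0.22 (SE 0.19), and Rps6, the subunit protein phosphorylated downstream of mTORC1, had 0.21 (SE 0.18). Rpl41, among the smallest ribosomal proteins, had 0.26 (SE 0.18). Each of these estimates lay within 2 SE of 0.

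The 5 and 0.5 mg/kg groups were compared with the same 5 controls, so the 3 dose comparisons share those mice and their values are given side by side only. At 5 against 0 mg/kg, 0 members were called by edgeR and by DESeq2 (smallest adjusted p 0.780 in edgeR), as were 0.0% of all genes in edgeR. Unadjusted p was under 0.05 for 5 members higher (2.73% of all genes) and 1 lower (3.45%), against 6.18% of all genes in both directions. Of the members 59 of 85 were positive (51.9% of all genes), none had groups that did not overlap (0.222% of all genes), and the median was 0.16, against 0.01 over all genes. Rpl23a, at the tunnel exit, had 85.1, 78.9, 90.7, 97.1 and 80.4 CPM in the controls and 86.3 to 140, median 120, at 5 mg/kg. Its log2 fold change was 0.39 (SE 0.14) and the groups overlapped. Rps15 had a log2 fold change of 0.45 (SE 0.18) and Rpl21 one of 0.39 (SE 0.14). The member lower with a p under 0.05 was Rpl36al, with 4.76, 3.04, 1.65, 1.88 and 5.17 CPM in the controls and 0.52 to 3.30, median 1.60, at 5 mg/kg, a log2 fold change of -0.81 (SE 0.33). Rpl36al rests on about 19.1 reads per mouse, and within runs the log2 fold change was -0.12 (601) and -2.26 (619, with 1 control). Without 0 mg/kg replicate 5 it was -0.42.

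At 0.5 against 0 mg/kg, 0 members were called by edgeR and by DESeq2 (smallest adjusted p 0.499 in edgeR), as were 0.0% of all genes in edgeR. Here 9 members had an unadjusted p under 0.05, all higher, where 6.99% of all genes were past it, 3.79% higher and 3.2% lower. Of the members 67 of 85 were positive, against 50.8% of all genes. In 3 members every mouse at 0.5 mg/kg lay above every control, where the groups did not overlap in either direction in 1.4% of all genes. Rpl21 had 51.0, 35.0, 41.0, 45.9 and 43.8 CPM in the controls and 56.7, 62.0, 54.4, 59.8 and 63.2 at 0.5 mg/kg, a log2 fold change of 0.45 (SE 0.15). Rpl23 had 139, 108, 123, 128 and 128 CPM in the controls and 172, 187, 140, 150 and 153 at 0.5 mg/kg, a log2 fold change of 0.35 (SE 0.13). Rps3a1 had 248, 224, 266, 259 and 277 CPM in the controls and 291, 557, 340, 326 and 316 at 0.5 mg/kg, a log2 fold change of 0.52 (SE 0.17), which was 0.29 without 0.5 mg/kg replicate 2. None of the 3 passed over all genes, and they were singled out after their values were seen.

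This comparison moved with the scaling. With library totals alone the median of all genes at 0.5 against 0 mg/kg was -0.17 and that of the members -0.02, against 0.00 and 0.16 with TMM. Under totals alone 1 member had an unadjusted p under 0.05 in place of 9, 38 of 85 were positive, and the log2 fold changes of Rpl21, Rpl23 and Rps3a1 were 0.27, 0.17 and 0.34. At 50 against 0 mg/kg the shift was smaller, with a median of -0.07 over all genes and 0.02 over the members under totals alone, 49 of 85 positive, and 0 members with an unadjusted p under 0.05 in place of 3.

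Between the treated groups, 50 against 5 mg/kg, 0 members were called by edgeR and by DESeq2 (smallest adjusted p 0.962 in edgeR), and 0.0% of all genes were called in edgeR. An unadjusted p under 0.05 was found in 0 members, against 4.85% of all genes (2.45% higher and 2.4% lower). Groups that did not overlap were found in 0 members and 0.00694% of all genes. Of 85 members 33 were positive (49.3% of all genes) and the median was -0.04. Rpl5, which carries the 5S ribosomal RNA into the large subunit, had 300 to 510 CPM, median 356, at 5 mg/kg and 286 to 692, median 436, at 50 mg/kg, a log2 fold change of 0.29 (SE 0.17), which was 0.17 without 50 mg/kg replicate 7. Rpl21 had 42.7 to 73.7, median 54.1, at 5 mg/kg and 42.7 to 66.0, median 46.6, at 50 mg/kg, a log2 fold change of -0.23 (SE 0.12). Both pairs of ranges overlapped. With 8 mice against 8, 70 of 85 members had intervals within 1.5-fold either way.

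Between the runs the family also stayed close to level. With dose in the fit, 0 members were called by edgeR and by DESeq2 for the run from 619 against the run from 601 (smallest adjusted p 0.441 in edgeR), where 0.0902% of all genes were called. The median was 0.05 (all genes 0.02), 55 of 85 were positive (54.0% of all genes), and 2 members had an unadjusted p under 0.05, both lower in the run from 619. Of all genes 7.98% were past that p, 4.16% higher and 3.83% lower, and 0.0% of genes and 0 members had runs that did not overlap. Rps10, a protein of the small-subunit head, had 2.88 to 7.48 CPM, median 4.93, in the run from 601 and 1.41 to 4.92, median 3.70, in the run from 619. Its log2 fold change was -0.46 (SE 0.18), on a mean of 31.1 reads per mouse. Rpl36a had 96.7 to 356, median 150, in the run from 601 and 80.3 to 201, median 116, in the run from 619, a log2 fold change of -0.37 (SE 0.17). Both pairs of ranges overlapped.

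Rps14, Rpl26, Rps15a and Rpl30 were next on the lower side, from -0.32 to -0.19, and Rpl15, Rpl27a, Rpl23a, Rpl38, Rps3 and Rpl19 led the higher side, from 0.14 to 0.22. Whether the 50 against 5 mg/kg difference depended on the run was tested by an interaction term in the 16 mice of those groups: 0 of 85 members passed in edgeR (smallest adjusted p 0.982), as did 0.0% of 13418 genes. Of the members 32 were positive (48.3% of all genes). Rpl36al (1.31, SE 0.49) and Rps27l (0.72, SE 0.34) had an unadjusted p under 0.05, both positive, and 4.89% of all genes did (2.21% positive and 2.68% negative).

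Paralogs and gene copies varied in level relative to their parent genes but passed no dose or run test either. Rps27l, a p53-responsive paralog of Rps27, stood at 233 CPM per kilobase of exon against 125 for Rps27, an order that turned per kilobase of coding transcript (330 against 377). Rps27l had 236, 175, 198, 144 and 333 CPM in the controls and 128 to 323, median 182, at 50 mg/kg (log2 fold change -0.14, SE 0.23). Rpl22l1, a paralog that can take the place of Rpl22, stood at 19.7 CPM per kilobase against 42.1 for Rpl22, and its log2 fold change at 50 against 0 mg/kg was -0.18 (SE 0.35) against 0.03 (SE 0.15) for Rpl22. Rps4l, Rpl37rt and Rpl6l, annotated as processed pseudogenes in GENCODE, stood at 11.6, 8.26 and 14.7 CPM per kilobase, against 97.8, 32.3 and 44.7 for Rps4x, Rpl37 and Rpl6. Rpl7l1, a relative of Rpl7 that works in ribosome assembly, stood at 16.9 against 139 for Rpl7. The parents share windows with these copies, so reads could have been split between them. Rpl10l and Rpl39l, which stand in for their parents in the testis, were at 0 reads in all 26 mice.

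Some ribosomal proteins bind Mdm2 and steady p53 when they are not built into ribosomes, and of the 8 members listed for this (Rpl5, Rpl11, Rpl23, Rpl26, Rps7, Rps27, Rps27l and Rps3) 2 were positive at 50 against 0 mg/kg, with a median of -0.03. At 5 against 0 mg/kg the median was -0.29, again with 2 positive, and 0 of 8 had an unadjusted p under 0.05, where 6.18% of all genes did. Some of the 8, such as Rps27 and Rps27l, fell with the GC index described below. The only control of the run from 619 was low in that index, and its part in this median was not tested. At 0.5 against 0 mg/kg the median was -0.02 with 3 positive (Rpl11, Rpl23 and Rpl26), and Rpl23, given above, was the 1 of 8 with an unadjusted p under 0.05 (6.99% of all genes). Beside them, of 14 tested p53 target genes 1 was positive at 50 against 0 mg/kg, the median was -0.19, and none was called. Cdkn1a, the cell-cycle inhibitor p21, had a log2 fold change of -1.51 (SE 0.58, adjusted p = 0.877 in edgeR) at 50 against 0 mg/kg and 2.02 (SE 0.41, adjusted p = 0.0506 in edgeR) between the runs.

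Single mice of 1 dose and run also differed. After removal of the dose and run means, the median SD of log2 CPM was 0.33 over the members, 0.34 over all tested genes, and 0.31 over genes within the members' range of CPM. Rpl22l1 (0.66), Rps4l (0.61), Rps27rt (0.54) and Rpl39 (0.54) varied most, and Rpl12 (0.16), Rpl23 (0.18), Rpl17 (0.19) and Rps19 (0.20) least. The variation was shared: 1 principal component held 58.3% of it and the next 20.2%. The same shares were not computed for other genes, so they are not shown to be particular to the members. Along the first component 55 members had one sign, led by Rpl28, and 30 the other, led by Rpl22l1, so that when one set was high in a mouse the other was low.

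Rpl28 and Rpl22l1 show the pattern. Rpl28, a large-subunit protein, had 84.0, 60.4, 89.6, 112 and 68.3 CPM in the controls, 65.8, 54.2, 65.3, 96.0 and 127 at 0.5 mg/kg, 59.8 to 126 (median 89.6) at 5 and 43.5 to 127 (median 82.9) at 50. Rpl22l1 had 58.5, 50.1, 22.0, 38.4 and 60.2 CPM in the controls, 94.2, 38.0, 36.9, 21.6 and 20.5 at 0.5 mg/kg, 17.2 to 54.8 (median 32.4) at 5 and 12.3 to 57.7 (median 39.9) at 50. The groups overlapped fully in both genes, and within the 0.5 mg/kg group replicates 4 and 5 were the highest in Rpl28 and the lowest in Rpl22l1.

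With the sign of Rpl28 taken as positive, the weight of a member on the first component tended to rise with its coding GC. Spearman's rho was 0.59 across 82 members, which share libraries and are not independent replicates. Of the 82 members with a coding sequence in GENCODE M21, coding GC ran from 39.9% in Rpl22l1 to 61.6% in Rpl36, with a median of 52.7%. The first 60 coding bases of the 4 members of lowest coding GC and of 3 others with high coding GC are shown as examples of the contrast in composition; they do not stand for every member of their set. They are from GENCODE M21 transcripts, 5′ to 3′ from the start codon, and the capitals mark every G and C.
Rpl22l1: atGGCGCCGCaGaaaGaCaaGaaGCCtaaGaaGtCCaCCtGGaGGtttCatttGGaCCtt
Rps27l: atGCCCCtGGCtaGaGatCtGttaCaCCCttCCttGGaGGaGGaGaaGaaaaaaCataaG
Rpl30: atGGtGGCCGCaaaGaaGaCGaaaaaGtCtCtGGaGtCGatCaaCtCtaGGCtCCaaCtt
Rpl39: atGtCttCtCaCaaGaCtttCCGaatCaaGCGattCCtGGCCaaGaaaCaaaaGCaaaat
Rps15: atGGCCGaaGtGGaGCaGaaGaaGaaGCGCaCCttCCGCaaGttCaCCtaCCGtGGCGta
Rpl18: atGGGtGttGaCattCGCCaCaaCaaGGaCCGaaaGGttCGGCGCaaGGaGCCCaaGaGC
Rpl36: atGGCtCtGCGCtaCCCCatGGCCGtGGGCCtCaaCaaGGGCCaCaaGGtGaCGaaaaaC
Rpl22l1 lies on chromosome 3 from 28805436 to 28807424, Rps27l on 9 from 66946086 to 66949516, Rpl30 on 15 from 34440505 to 34443640 and Rpl39 on X from 37082520 to 37085402. Rps15 lies at the site given above, Rpl18 on 7 from 45715457 to 45720836 and Rpl36 on 17 from 56613416 to 56614243. Of the 60 bases shown, 24 (Rpl39) to 30 (Rpl22l1) were G or C in the first 4 genes and 34 to 36 in the last 3.

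To place each mouse without using the members, an index was taken from the other tested genes: the mean log2 CPM of those whose transcript GC was above 54.9% minus the mean of those below 45.5%. It was chosen after the members' pattern was seen. The index ran from -0.77 in 0.5 mg/kg replicate 2 to 0.06 in 0 mg/kg replicate 4, with a control mean of -0.27 ± 0.26 (SD, n = 5). The mean was -0.38 ± 0.34 (SD, n = 5) with 0.5 mg/kg, -0.18 ± 0.14 (SD, n = 8) with 5 mg/kg and -0.34 ± 0.25 (SD, n = 8) with 50 mg/kg. The groups overlapped. The 4 mice at the low end were 0.5 mg/kg replicate 2, 50 mg/kg replicate 7 (-0.75), 0 mg/kg replicate 5 (-0.67) and 0.5 mg/kg replicate 1 (-0.66).

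The members' levels varied along with the index. The contrast of the 27 members of highest coding GC minus the 27 of lowest, in mean log2 CPM, ran from -1.04 in 50 mg/kg replicate 7 to -0.09 in 5 mg/kg replicate 5. Of the 8 mice lowest in the index 5 were among the 8 lowest in the contrast, and of the 8 highest in the index 7 were among the 8 highest. With the index added to dose and run in edgeR's fit, 67 of 85 members changed with it at an adjusted p under 0.05, where 44.1% of all genes did. Of these 43 rose with the index (22.4% of all genes) and 24 fell (21.7% of all genes). The index was chosen after this pattern was seen in the same mice. These counts and the slopes below therefore describe the pattern and do not test it. The shares over all genes include the genes that make up the index.

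**Figure D3:**
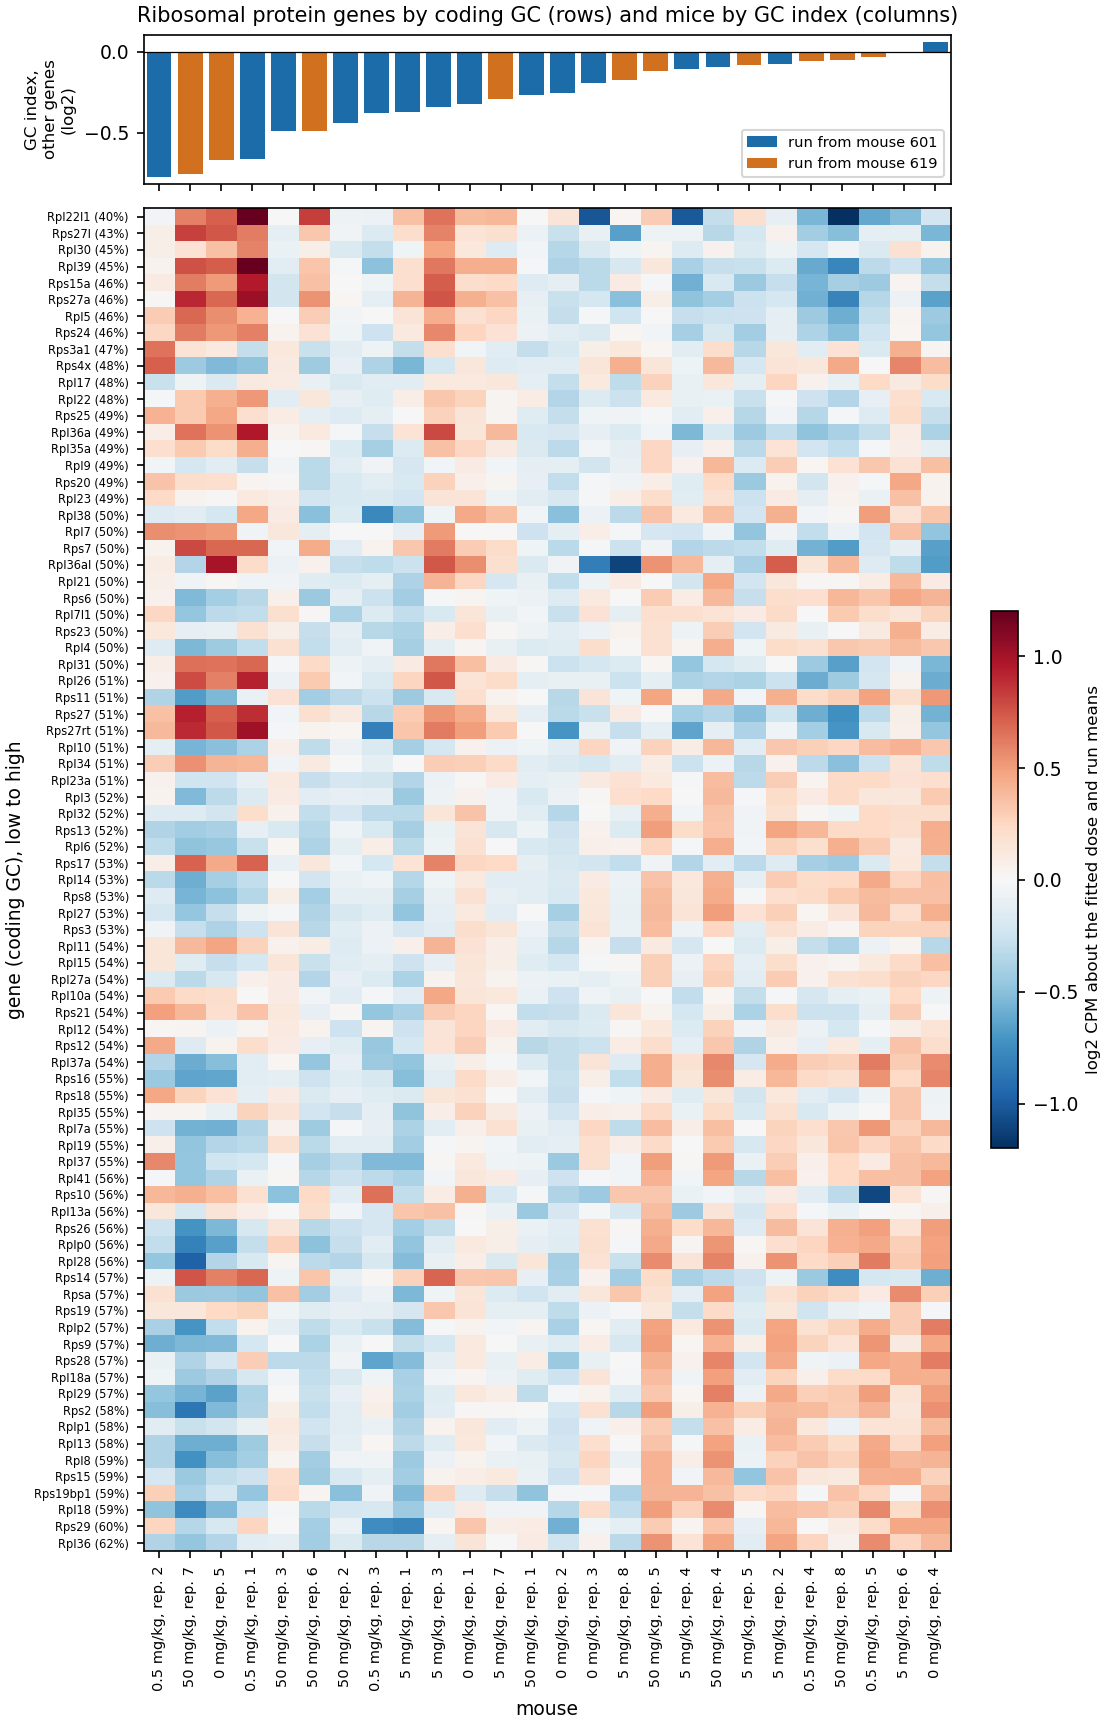
Residual log2 CPM about the fitted dose and run means (colour) for 81 members with a coding sequence (rows, low to high coding GC) in 26 mice (columns, ordered by the GC index of other genes, whose value is drawn as bars in log2 units coloured by run). Members at the top are mostly red on the left and blue on the right, and members at the bottom mostly the reverse.

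**Figure D4:**
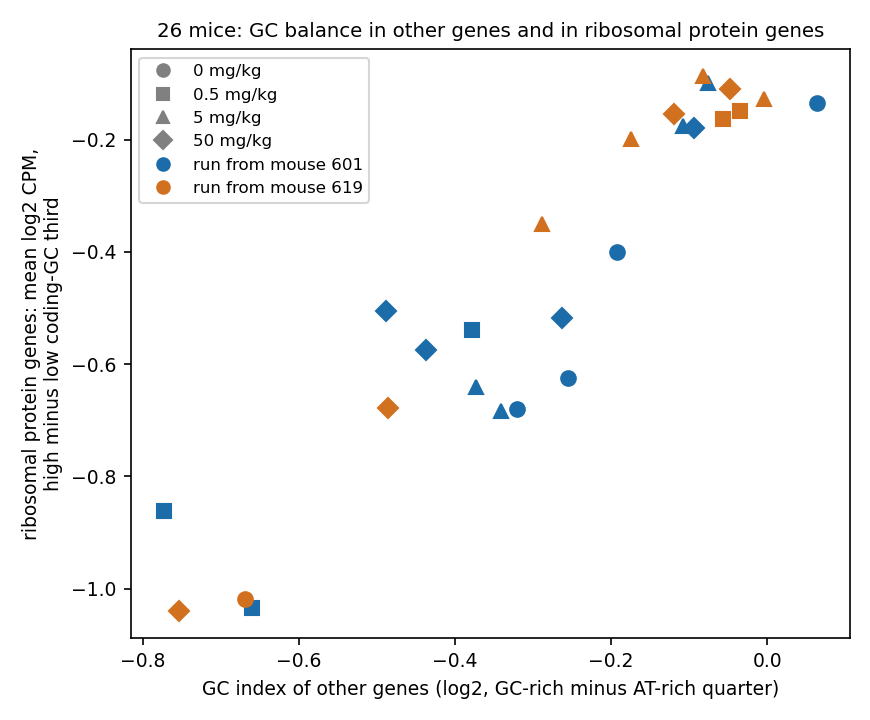
Each of 26 mice by the GC index of other genes (x axis, log2) and by the contrast of the 27 members of highest against the 27 of lowest coding GC (y axis, difference in mean log2 CPM), with the symbol giving dose and the colour giving run. Mice of every dose and both runs lie along one band from about -1.04 to -0.09 on the y axis.

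Among the 27 members of highest coding GC, 21 rose with the index and 1 fell, among the middle 28 it was 16 and 9, and among the 27 of lowest coding GC 4 rose and 14 fell. Rpl28 rose by 1.52 log2 CPM per unit of index (SE 0.20), Rpl18 by 1.49 (SE 0.16), Rps2, a small-subunit protein at the entry of the messenger RNA channel, by 1.47 (SE 0.16) and Rplp0 by 1.39 (SE 0.18). Rpl22l1 changed by -1.83 (SE 0.42), Rps27a by -1.81 (SE 0.27), Rpl39, which lines the peptide tunnel, by -1.75 (SE 0.31) and Rps27 by -1.73 (SE 0.21). Coding GC did not fix the sign. Rps14, at 56.5% coding GC, fell by 1.39 (SE 0.25), and Rps6, at 50.2%, rose by 1.002 (SE 0.18). Across the 82 genes Spearman's rho of slope with coding GC was 0.61, over genes that share libraries.

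**Figure D5:**
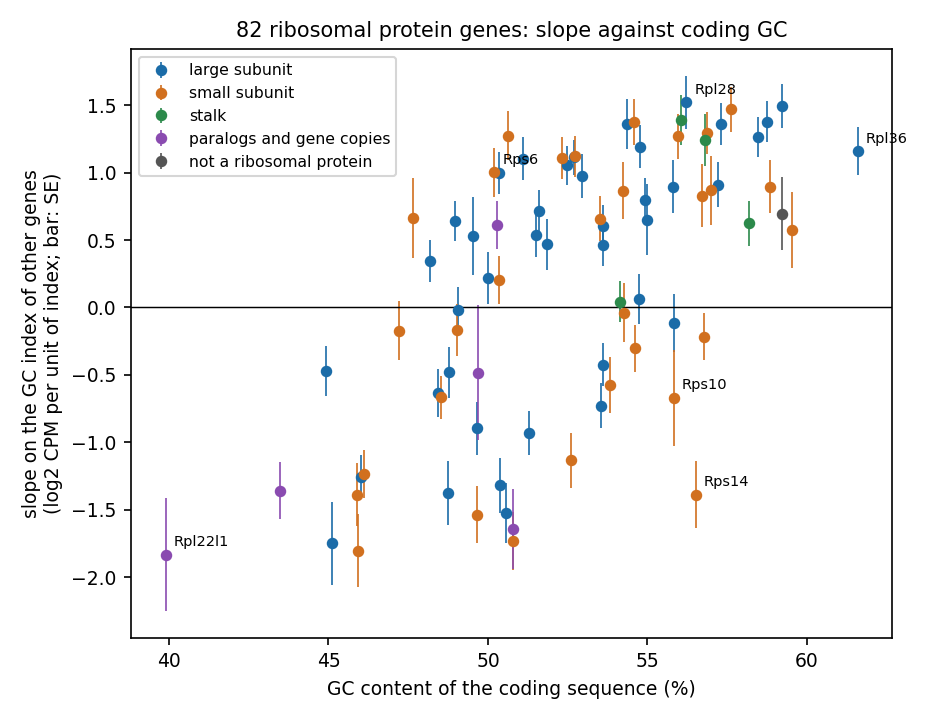
Slope of each of 82 members on the GC index of other genes (y axis, log2 CPM per unit of index, bars give the SE) against the GC content of its coding sequence (x axis, %), coloured by class. Slopes run from -1.83 (Rpl22l1) to 1.52 (Rpl28), with Rps14 far below other genes of its GC content.

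Mitochondrial reads moved with the index. They made up 3.83% to 10.4% of counts, and of the 8 mice lowest in the index 5 were among the 8 highest in mitochondrial share, while of the 8 highest in the index 6 were among the 8 lowest. The part of RNA quality, library preparation or tissue state in this axis was not tested. With the index in the fit the median member SE at 50 against 0 mg/kg was 0.12, against 0.19 without it. In that fit still 0 members were called in any dose comparison in edgeR (smallest adjusted p 0.198 at 50, 0.479 at 5 and 0.126 at 0.5 against 0 mg/kg). Unadjusted p was under 0.05 for 21 members higher and 1 lower at 50 against 0 mg/kg, where 11.6% of all genes were past it in either direction, and for 34 higher and 2 lower at 0.5 against 0 mg/kg (16.2% of all genes). For 5 against 0 mg/kg it was 12 higher and 3 lower (8.5% of all genes). For 50 against 5 mg/kg it was 2 higher and 0 lower (6.72%), and between the runs 0 higher and 4 lower (9.55%). Shares of all genes by direction were not computed for this fit. The index comes from the same libraries, was chosen after the pattern was seen, and its mean differed between dose groups. Whether these counts hold with library totals alone was not tested.

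Within the run from 619 each dose was set against 1 control, replicate 5, which was low in the index. In the run from 619 alone the median member log2 fold change was 0.34 at 50, 0.42 at 5 and 0.57 at 0.5 against 0 mg/kg. At 0.5 mg/kg it was 0.90 over the 27 members of highest coding GC and -0.30 over the 27 of lowest. In the run from 601 alone, with 4 controls, the medians were 0.08 at 50, 0.08 at 5 and 0.11 at 0.5 mg/kg, and at 0.5 mg/kg the same split was -0.02 and 0.35, the other way round. No member was called in either run alone.

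Genes that work with the ribosome were read from gene lists. Of 22 tested genes with other TOP messages, such as elongation factors, 17 were positive at 50 against 0 mg/kg (median 0.10). Among them were Npm1, a nucleolar chaperone (0.29, SE 0.15), and Eef1a1, the elongation factor that brings in aminoacyl-tRNA (0.20, SE 0.20). Of 69 ribosome biogenesis genes 53 were positive (median 0.12). Of the 69, 6 had an unadjusted p under 0.05, all higher, where 2.54% of all genes were higher past that p. They were led by Riok2, a kinase of late small-subunit assembly (0.38, SE 0.14), and Dkc1, the pseudouridine synthase of box H/ACA particles (0.30, SE 0.12). Riok2 was also lower in the run from 619 than in the run from 601 (-0.36, SE 0.096, adjusted p = 0.130 in edgeR). Of 29 translation initiation factors 24 were positive (median 0.10), of 30 genes of mTORC1 and translation control 15 were positive (median 0.00), and of 8 small nucleolar RNA host genes 6 were positive (median 0.16). None of these genes was called in any dose or run comparison, and over all genes 51.1% were positive at 50 against 0 mg/kg.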

How the data were processed

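The authors deposited whole-number read counts per gene for the liver of each of 26 mice, not normalized. The submitters' processing notes name featureCounts, bcl2fastq and the genome build mm10. The aligner, annotation, strand setting and versions are not given in the sources used here. The 26 per-mouse files equalled the combined table of 54532 rows in every value, and 54409 gene IDs were found in GENCODE M21 (GRCm38). Each library is a separate mouse, and library totals ranged from 5433074 to 9088626 counts.

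Counts were filtered with filterByExpr (14415 genes tested), scaled by TMM and fitted over all 26 mice with dose and run in edgeR 4.0.16 (quasi-likelihood test, robust, R 4.3.3). Adjusted p-values are Benjamini-Hochberg over all genes tested, with a threshold of 0.05, and intervals are at 95%. For the interaction only mice given 5 or 50 mg/kg were fitted. Log2 CPM used a prior count of 2. Alternatives were DESeq2 1.42.0, limma-voom 3.58.1, other filters, scalings and samples, each run alone, each mouse left out, and the GC index as a term. The GC index and the level per length of the coding transcript were added after the data were seen. The fit was tested on simulated data.

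Members, gene lists and the rule for named genes were chosen with earlier results of these data known. Named were any called members, the 6 members each way of smallest p at 50 against 0 mg/kg and between runs and 3 each way elsewhere, members fixed by role, the 3 highest and lowest in level, the 4 most and least variable, and 3 genes of each other list. Shared windows are exact 50-base matches among GENCODE transcripts. Motifs were searched in RefSeq windows of 250 bases before to 50 after each start. Some items are not reported here.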

Additional observations from a re-analysis of the deposited data

Results flagged for a closer look

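Among 120 tested sets of 4 to 10 mice, 8 had a mouse far above the rest of its group, where chance alone gives about 1 in 20. The 8 are thus near that rate, and the sets share mice and are not independent. Replicate 3 at 5 mg/kg stood out in 3 members of the low-GC side: Rpl31 (236 CPM), Rpl36a (243 CPM) and Rpl30 (174 CPM). At 0.5 mg/kg, Rpl39 stood at 170 CPM in replicate 1, where the next mouse had 68.3, and Rps3a1 at 557 CPM in replicate 2, where the next had 340. At 50 mg/kg, Rpl21 stood at 66.0 CPM in replicate 4 and Rpl37rt at 9.43 CPM in replicate 5. At 0 mg/kg, Rps19bp1 stood at 11.7 CPM in replicate 4. Rows with pseudogene symbols, which were not members, held 0.0170% to 0.0262% of a mouse's reads.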

How the results depend on the processing

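No member was called under any of the alternatives run, including each mouse left out in turn. No paired analysis was possible because the labels give each mouse a number of its own; the replicate numbers printed here only name mice in accession order within a group and pair none across groups. Using only the run from 619, with 1 control, the median member log2 fold change was 0.343, 0.418 and 0.571 at 50, 5 and 0.5 against 0 mg/kg, against 0.107, 0.156 and 0.156. With library totals alone it was -0.018 at 0.5 mg/kg. Leaving out each mouse, it ranged from 0.044 (without 50 mg/kg replicate 4) to 0.182 (without 0 mg/kg replicate 4) at 50, 0.093 to 0.241 at 5 and 0.107 to 0.236 at 0.5 against 0 mg/kg.

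Signs turned for Rps19bp1 at 50 against 0 mg/kg in the run from 619 (0.173). The run from 601 turned Rps14 (0.113), Rps27a (0.223) and Rps7 (0.264) at 0.5 against 0 mg/kg, and Rpl36al (-0.0040) and Rps27l (-0.060) at 50 against 5 mg/kg. Leaving out each mouse, the range was -0.285 to 0.074 for Rpl31, -0.422 to 0.162 for Rpl36al, -0.377 to 0.032 for Rpl39, -0.330 to 0.0090 for Rps14 and -0.405 to 1.7e-04 for Rps27a at 50 against 0 mg/kg, and -0.374 to 0.068 for Rps7 at 0.5 against 0 mg/kg. Each of these turned without 0 mg/kg replicate 5.

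Over all genes, 1 was called at 50 against 0 mg/kg, 3 by DESeq2, 0 without the run term, 4 with mice from 601 on and 0 with those from 619 on, and 0 to 1 with a mouse left out (0 without 0 mg/kg replicate 5). At 5 against 0 mg/kg DESeq2 called 4, and leaving out a mouse gave 0 to 3 (3 without 0 mg/kg replicate 4, 1 without 5 mg/kg replicate 7). At 0.5 against 0 mg/kg DESeq2 called 3, the run from 601 gave 33 and the GC index 1. Between the runs 13 were called, 108 by DESeq2, 6 by limma-voom, 8 with a mean of 10 counts as filter, 3 without dose and 50 with the GC index, and 2 (without 5 mg/kg replicate 4) to 60 with a mouse left out (the 60 came without control replicate 4 and also without 50 mg/kg replicate 7). The median level per kilobase was 72.8 CPM by exons, 111 by the longest transcript and 170 by the coding transcript. The cause of these changes was not tested. Members with few reads, such as Rpl36al and Rps10, are the least precise.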
